A study of Mus musculus with 25 samples.

Results

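Total RNA of mouse peritoneal macrophages lacking SAMHD1 together with one of the cytosolic RNA sensors was compared between 4 libraries labelled SAMHD1 MDA5 DKO and 4 labelled SAMHD1 RIG-I DKO. These 8 libraries were taken by the start of their column names from the 25 libraries of the series, and all genes of the table were used. Both groups carry the loss of SAMHD1, so the contrast is MDA5 loss against RIG-I loss on that background. The labels give all 8 samples as untreated at day 0, name no strain, age or sex, and do not say whether the samples of a genotype came from separate animals. The p-values therefore reflect only how far these samples vary, which may be technical variation. The other genotypes are WT with 5 libraries, and SAMHD1 KO, MDA5 KO and RIG-I KO with 4 libraries each.

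SAMHD1 is a triphosphohydrolase that breaks down deoxynucleotides, and cells that lack it show spontaneous type I interferon signalling. The receptors MDA5 (gene Ifih1) and RIG-I (gene Ddx58) recognise double-stranded RNA in the cytosol, the first long duplexes and the second short ones or triphosphate-bearing ends. Both signal through the adaptor MAVS to interferon genes, and secreted interferon then induces the interferon-stimulated genes, Ifih1 and Ddx58 among them. Large peritoneal macrophages are resident cells of the peritoneal cavity, which also holds B cells, T cells and mast cells.

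The 8 libraries held between 27479337 and 39338756 reads in the 13266 listed genes, and the 10 most abundant genes took between 17.1% and 18.7% of them. Values are given as normalized counts, which are reads per gene divided by the authors' size factor of the library. Libraries are numbered in the order of their columns, which is only a name. The first principal component of the 8 libraries (28.9% of the variance) separated the genotypes, with the MDA5 double knockouts between 4.2 and 36.2 and the RIG-I double knockouts between -24.2 and -18.1. All 27 listed markers of large peritoneal macrophages were measured, and their mean log2 value lay between 14.84 and 15.01 in the MDA5 double knockouts and between 14.87 and 14.99 in the RIG-I double knockouts.

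The sensor genes followed their labels in all 8 libraries, and Samhd1 did so in 7. Ifih1 was read at normalized counts of 6.24, 1.15, 11.1 and 10.8 in libraries 1 to 4 of the MDA5 double knockout and at 1954, 1968, 1780 and 2307 in those of the RIG-I double knockout. That is at most 0.613% of the WT mean in the first group, and the groups do not overlap (log2 fold change -8.18 ± 0.50 SE, two-sided exact permutation p = 0.0286, the smallest that 4 against 4 allows). Ddx58 stood at 1574, 1231, 1442 and 1336 in the MDA5 double knockout against 241, 222, 304 and 288 in the RIG-I double knockout. Between 14.5% and 19.8% of the WT level of Ddx58 RNA thus remained in the RIG-I double knockout, and again no library overlapped (log2 fold change 2.40 ± 0.12 SE, exact permutation p = 0.0286).

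Samhd1 had normalized counts of 1397, 1069, 4952 and 1359 in the MDA5 double knockout and of 1606, 1534, 1852 and 1541 in the RIG-I double knockout. The other 7 libraries lay between 10.8% and 18.7% of the WT mean, but the library labelled SAMHD1 MDA5 DKO 3 reached 50% of it. The groups overlapped (log2 fold change 0.13 ± 0.38 SE, exact permutation p = 1). Because that library goes partly against its label, calls that end without it are given both ways. Without it 18 genes passed between the double knockouts in place of 21, and Spib, Sh3bgrl3 and Snapc2 were the calls that ended.

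Across all genes, few differences passed in a fit of the whole series. Of 13252 genes tested, 21 passed (0.158%, limma, adjusted p under 0.05), 14 of them higher (0.106%) and 7 lower (0.0528%) in the MDA5 double knockout. Here and throughout, a fold change is on the scale of log2(normalized count + 1), positive where the MDA5 double knockout is higher, and it understates the change of genes with few reads. The count of calls depended on which other libraries shared the estimate of spread. Fitting only the 8 double-knockout libraries called 94 genes (0.709%), 38 higher and 56 lower, and leaving out the WT and SAMHD1 KO libraries that stood apart on the first component of all 25 called 234 (1.77%), 111 higher and 123 lower. All 21 genes passed in the last of these fits, and 19 passed in all 3. Over 20 alternative settings, 9 of the 21 kept their call in each that tested them (Ifih1, Ddx58, Rnd3, Kif5c, Gca, 5031425F14Rik, Gm49519 and Jund among them). The other 12 lost it in at least 1 with no change of sign. Leaving out library 3 of the MDA5 double knockout is counted in the 20 both on its own and as the library of intermediate Samhd1.

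**Figure D1:**
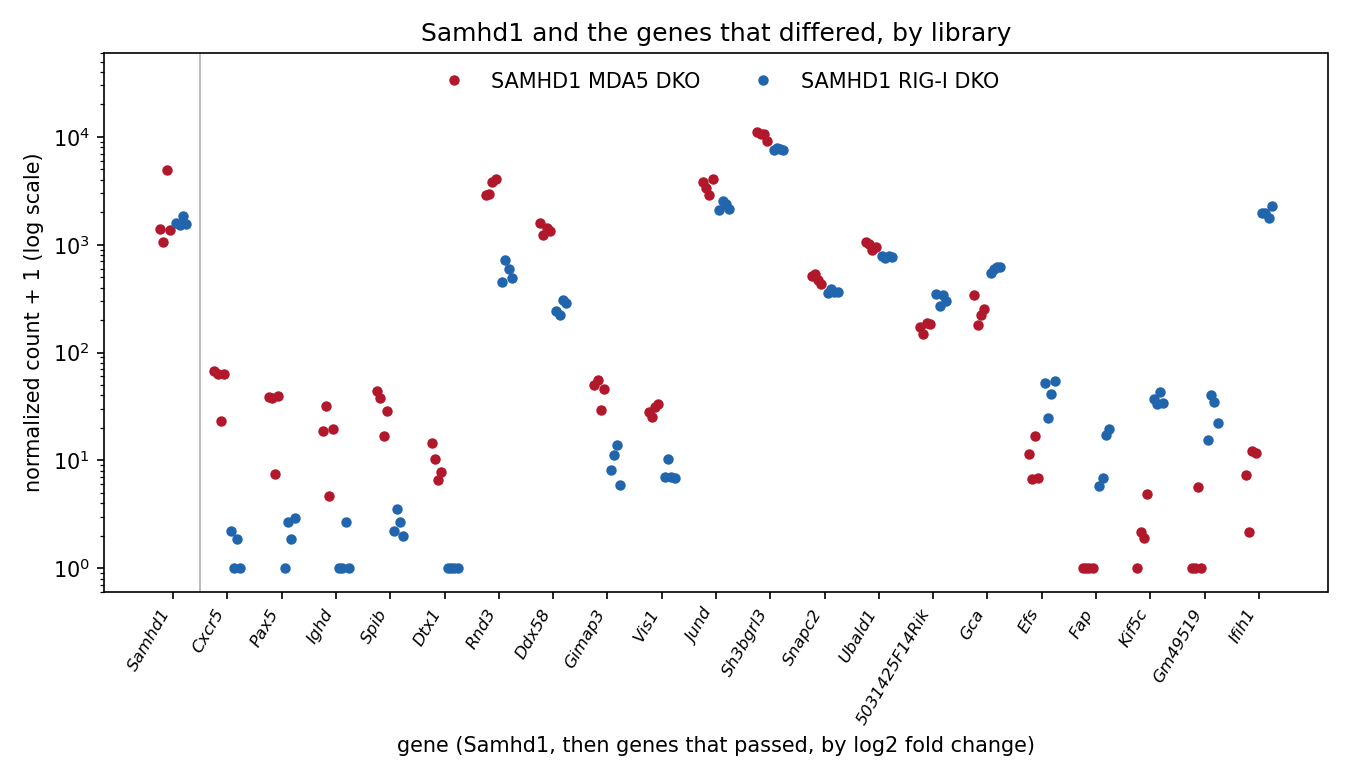
Normalized count + 1 on a log axis for Samhd1 and 20 of the genes that passed in the fit of all 25 libraries, ordered by log2 fold change; each point is 1 library, red for SAMHD1 MDA5 DKO and blue for SAMHD1 RIG-I DKO. The 2 groups overlap for Samhd1, where 1 red point stands at 4952, and for none of the 20 genes.

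For all 21 genes the 4 libraries of one genotype lay above the 4 of the other, against 5.25% of tested genes higher and 4.53% lower without overlap. The 21 were selected on the values of these same libraries, so this describes them and adds no further evidence. Apart from the sensors themselves, the 21 fell mainly into genes of chromosome 2, which carries Ifih1, and genes of B cells and other lymphocytes.

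Genes of chromosome 2 made up the first group. Of the 1046 tested genes of chromosome 2, 8 passed (0.765%), against 0.107% of the 12206 tested elsewhere. Among the 8 were Vis1, Kif5c, Rnd3, Fap, Ifih1, Gca and 5031425F14Rik, and all 8 also passed between the single knockouts of MDA5 and RIG-I. Ifih1 lies at chr2:62595798-62646255 on the minus strand (GRCm38, GENCODE M21), and Fap and Gca are its neighbours at -0.08 and 0.06 Mb. Distances run from the midpoint of Ifih1 to the midpoint of each gene.

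Kif5c, a kinesin heavy chain that carries cargo along microtubules (chr2:49619298-49774778), had normalized counts of 0, 1.15, 0.92 and 3.92 in the MDA5 double knockout and of 35.8, 32.1, 41.7 and 33.1 in the RIG-I double knockout. It was near 0 in every library of the first group and evenly read in the second (log2 fold change -4.10 ± 0.44 SE, limma adjusted p = 1.1e-05). In the whole series, the 8 libraries with MDA5 deleted lay between 0 and 5.36, and the other 17 between 21 and 52.3. Rnd3, an atypical GTPase that opposes actomyosin contraction (chr2:51130438-51149111), moved the other way, with 2895, 2946, 3835 and 4099 against 446, 728, 595 and 495. The 8 libraries with MDA5 deleted lay between 2895 and 7147 and the others between 446 and 979 (2.61 ± 0.20 SE, limma adjusted p = 2.89e-08).

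Gca, which encodes the calcium-binding protein grancalcin (chr2:62664285-62694109), was read at 340, 179, 224 and 255 in the MDA5 double knockout and at 549, 593, 620 and 625 in the RIG-I double knockout. All 4 libraries of the first group were lower (log2 fold change -1.29 ± 0.18 SE, limma adjusted p = 0.000897). Fap, a cell-surface serine protease of activated fibroblasts (chr2:62500943-62574075), had 0 reads in all 4 MDA5 double knockouts and 49 reads in the RIG-I double knockouts. Against a floor of 3 reads over the group it was at least 16.3-fold lower (limma adjusted p = 0.019), with normalized counts of 4.77, 5.92, 16.2 and 18.5 in the RIG-I double knockout.

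Vis1, annotated as a miscellaneous RNA, had 27, 24.2, 30.4 and 32.4 against 5.97, 9.31, 5.95 and 5.84 (1.94 ± 0.34 SE, limma adjusted p = 0.00981). The long noncoding RNA 5031425F14Rik, at 103.83 Mb, had 173, 147, 187 and 184 against 345, 268, 344 and 298 (-0.85 ± 0.14 SE, limma adjusted p = 0.00383). Rprm, which encodes the cell cycle inhibitor Reprimo and lies at -8.54 Mb, missed the threshold, with 2.08, 4.61, 8.29 and 13.7 against 23.9, 35.5, 73.1 and 40.9 (-2.56 ± 0.58 SE, limma adjusted p = 0.0905), and passed between the single knockouts (adjusted p = 0.0197).

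**Figure D2:**
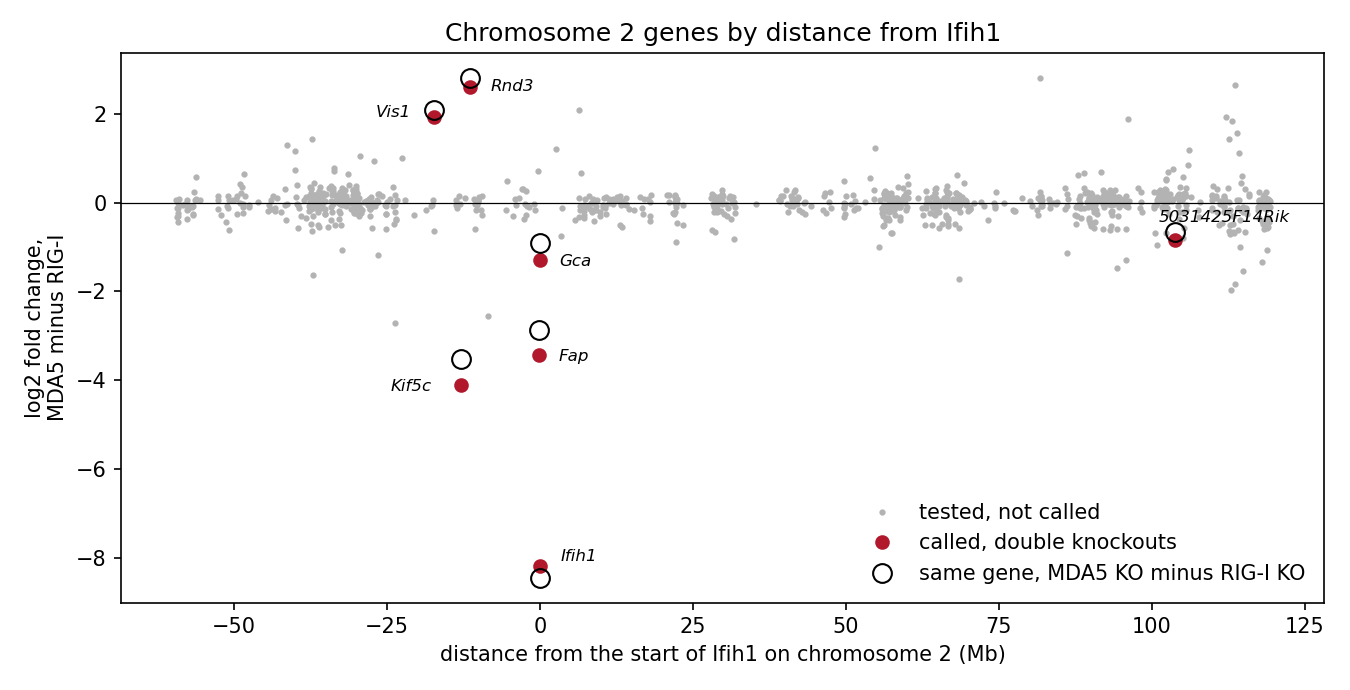
Log2 fold change of 1045 tested genes of chromosome 2 against distance from Ifih1 in Mb, taken between gene midpoints although the axis title names the start. Grey points are genes that did not pass, red points 7 that passed between the double knockouts, and open circles the same 7 genes between the single knockouts. Of the 7, 6 lie between -17.34 and 0.06 Mb, and each open circle stands on the same side of 0 as its red point.

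For 6 of the 21 genes, Ifih1, Rnd3, Kif5c, Gca, Vis1 and Fap, the 8 libraries of both MDA5 lines lay apart from all 17 others, and all 6 are on chromosome 2. For 7, the 8 libraries of both RIG-I lines lay apart instead: Ddx58, Ubald1, Dtx1, Gimap3, Ighd, Pax5 and Snapc2. The 21 genes were selected on the double knockouts among these libraries. How many of all tested genes lie apart in this way was not counted, so these numbers only describe the 21. Within 10 Mb of Ifih1, 2 of 56 tested genes passed (3.57%), Fap and Gca, beside 0.158% of all genes. Within 10 Mb of Ddx58 (chr4:40203773-40239828), 1 of 122 passed (0.82%), the B cell gene Pax5, and within 10 Mb of Samhd1 (chr2:157097533-157135265) 1 of 186 did (0.538%), 5031425F14Rik. Whether these differences come with the deleted gene or with DNA that flanks each deletion cannot be told apart in this design.

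Cxcr5, Pax5, Spib, Ighd, Dtx1 and Gimap3, all known from lymphocytes, were higher in the MDA5 double knockout and low in the RIG-I double knockout. They were put together after their values were seen, and Cxcr5 and Dtx1 are on none of the marker lists. In these bulk libraries fewer cells of a type and less RNA per cell cannot be told apart. Cxcr5, the receptor through which CXCL13 guides B cells, was read at 66.5, 62.2, 22.1 and 62.7 in the MDA5 double knockout against 1.19, 0, 0.85 and 0 in the RIG-I double knockout. The library with intermediate Samhd1 was the lowest of the first group and still far above the second (5.14 ± 0.81 SE, limma adjusted p = 0.00345). Pax5, which fixes B cell identity, had 37.4, 36.9, 6.45 and 38.2 against 0, 1.69, 0.85 and 1.95 (3.71 ± 0.76 SE, limma adjusted p = 0.0457).

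Spib, a transcription factor of B cells and plasmacytoid dendritic cells, had 42.6, 36.9, 15.7 and 27.4 against 1.19, 2.54, 1.7 and 0.97 (3.55 ± 0.72 SE, limma adjusted p = 0.0444). Ighd, the constant region of immunoglobulin D, had 17.7, 31.1, 3.68 and 18.6 against 0, 0, 1.7 and 0 (3.58 ± 0.71 SE, limma adjusted p = 0.0369). Both were thus lowest, within the MDA5 double knockout, in library 3. Dtx1, a Deltex ubiquitin ligase of the Notch pathway in lymphocytes, had 34 reads over the MDA5 double knockout and 0 over the RIG-I double knockout. That is at least 11.3-fold higher by the floor of 3 reads (limma adjusted p = 0.0265). Gimap3, a GTPase of lymphocytes, had 48.9, 54.1, 28.6 and 45.1 against 7.16, 10.2, 12.8 and 4.87 (2.25 ± 0.45 SE, limma adjusted p = 0.0369). Leaving out 1 of the 8 libraries ended the calls of Dtx1, Gimap3, Ighd, Pax5 and Spib in 6 to 8 cases each, and that of Cxcr5 in 0. Cxcr5 did not pass on the deposited stabilized values (limma adjusted p = 0.287), with a pseudocount of 5 (0.0705) or with voom (0.457), and Spib not without library 3 of the MDA5 double knockout (0.0501).

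Of 19 listed B cell markers 16 were measured, 14 of them with a positive value. Their median log2 fold change was 2.75 beside 0.00258 over all genes tested. In all, 3 passed (Ighd, Spib and Pax5) in the fit of 25 libraries, 8 in that of the 8 libraries, where 0.287% of genes passed upward, and 11 without the 2 libraries that stood apart, where 0.838% did. With the deposited stabilized values, a pseudocount of 5, a minimum of 50 normalized counts or voom 0 of them passed (limma), and with 1 library left out between 0 and 2 did. Without library 3 of the MDA5 double knockout the median was 3.35. Ighm, the heavy chain of immunoglobulin M, chosen after its values were seen, had 377, 397, 135 and 323 against 16.7, 17.8, 40 and 24.3. The groups were well apart, and the gene passed with 8 libraries (limma adjusted p = 0.00411) but not with 25 (3.56 ± 0.79 SE, adjusted p = 0.0879). The 2 markers with a negative value were Bhlhe41 and Zcwpw1, and Bank1 was at 1636 to 2203 in all 8 libraries. The summed level of the list, most of it Bank1, ran from 2420 to 3040 in the MDA5 double knockout and from 2110 to 2260 in the RIG-I double knockout.

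The mean log2 value of the B cell markers lay between 4.44 and 5.80 in the MDA5 double knockout and between 2.89 and 3.37 in the RIG-I double knockout. It lay between 3.95 and 7.18 in WT, between 5.80 and 6.73 in MDA5 KO, and between 2.98 and 3.55 in RIG-I KO. Low values thus went with both RIG-I lines, and the MDA5 lines lay within the WT range.

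Markers of other cells of the cavity gave few calls. Of 12 mast cell markers 6 were measured, 5 with a positive value (median 2.29), and 4 averaged under 10 normalized counts. All 5 were higher without overlap, beside 5.25% of all genes. None passed in the fit of 25 libraries, in which 0.106% of genes passed upward. Tpsb2, Mcpt4, Cma1 and Kit had an unadjusted p under 0.05 (limma), as did 1155 genes (8.72%) in either direction. Between the single knockouts 4 passed, where 0.415% of genes passed upward. The mast cell tryptase Tpsb2 came nearest, with 14.6, 15, 24 and 11.8 against 0, 0, 3.4 and 0 (3.53 ± 0.79 SE, limma adjusted p = 0.0879), and it passed when only the 8 libraries were fitted (adjusted p = 0.0175). The chymase Mcpt4 followed with 10.4, 29.9, 22.1 and 15.7 against 1.19, 0.85, 6.8 and 0 (limma adjusted p = 0.226). Of 21 T and NK cell markers 10 were measured, 9 of them positive (median 1.37), and Gimap3 passed. Of 12 dendritic cell markers 7 were measured, 4 positive and 3 negative (median 0.481, and -0.0523 with a minimum of 50 normalized counts), and none passed with 25 libraries. Their member of smallest p was Ccr7, a chemokine receptor of migrating dendritic cells and lymphocytes, with 19.8, 11.5, 5.53 and 13.7 against 0, 0.85, 2.55 and 0 (2.97 ± 0.68 SE, limma adjusted p = 0.096).

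**Figure D3:**
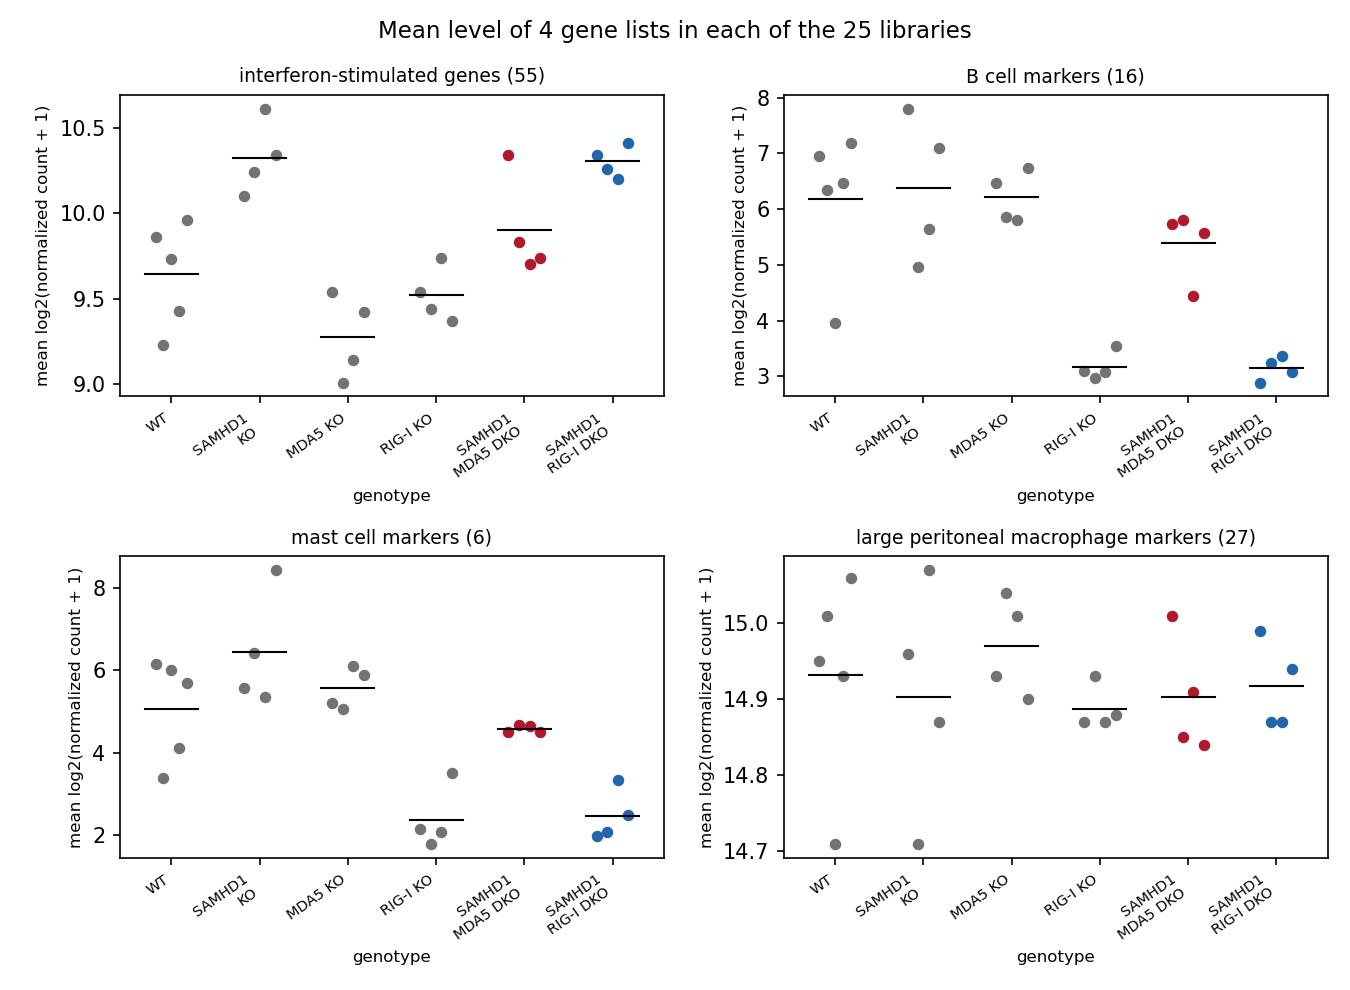
Mean of log2(normalized count + 1) over the measured members of 4 gene lists, 1 point per library and a black line at the mean of each genotype, with red for SAMHD1 MDA5 DKO and blue for SAMHD1 RIG-I DKO; the targeted genes are left out and each panel has its own vertical scale. B cell and mast cell markers are low in both RIG-I genotypes, macrophage markers overlap between all genotypes, and for interferon-stimulated genes 3 of the 4 red points lie at 9.70 to 9.83 and the fourth at 10.34, within the blue range of 10.20 to 10.41.

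The other 6 genes that passed were neither on chromosome 2 nor counted here with the lymphocyte genes. Jund, a subunit of the transcription factor AP-1, was read at 3845, 3338, 2895 and 4034 against 2080, 2518, 2379 and 2142 (0.62 ± 0.10 SE, limma adjusted p = 0.00572). It was the 1 of 20 dissociation and immediate early genes that passed, and the list had a median of 0.134. Sh3bgrl3, a small thioredoxin-like protein, had 11023, 10567, 10639 and 9244 against 7496, 7826, 7771 and 7627 (limma adjusted p = 0.0427, and 0.0968 without library 3 of the MDA5 double knockout). Snapc2, a subunit of the complex that starts small nuclear RNA transcription, was 1.32-fold higher (limma adjusted p = 0.0457, and 0.0725 without that library), and Ubald1 1.26-fold (limma adjusted p = 0.0265).

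Efs, an adaptor protein of the CAS family, had 10.4, 5.76, 15.7 and 5.88 against 51.3, 23.7, 40 and 53.5, lower in every MDA5 double knockout (-2.09 ± 0.43 SE, limma adjusted p = 0.0457). Gm49519 had 0, 0, 4.61 and 0 against 14.3, 39.8, 34 and 21.4 (-4.10 ± 0.68 SE, limma adjusted p = 0.00513). It is annotated as a processed transcript that overlaps Tmem260 on the same strand, so reads of both may not be separable, and between the single knockouts it did not pass (-0.80, adjusted p = 0.627). Cxcr5, Gca, Jund, Pax5 and Sh3bgrl3 overlap an annotated gene of the opposite strand, and the sources used here do not say if reads were counted by strand. Just outside the threshold were Nmi, an interferon-inducible gene on chromosome 2, with 497, 349, 381 and 347 against 650, 618, 516 and 584 (limma adjusted p = 0.0772), 2610044O15Rik8 (adjusted p = 0.0544), Zfp760 (0.0793) and Bbs4 (0.0879).

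Interferon-stimulated genes were mostly lower in the MDA5 double knockout, by small amounts. Leaving out Ifih1 and Ddx58, 55 of the 58 listed were tested, and 50 of these had a negative log2 fold change, beside 49.3% of all genes tested, and their median was -0.346 beside 0.00258 over all genes. In the fit of 25 libraries none of the 55 passed (limma), and 16 were lower at an unadjusted p under 0.05, beside 3.31% of all genes. Nor did any pass on the deposited stabilized values, with limma voom on the recovered reads, with other pseudocounts, filters or scalings, or with neither trend nor robust. Leaving out any 1 of the 8 double-knockout libraries gave no call either. The only alternatives with calls were the 2 fits that follow. Fitting the 8 double-knockout libraries called 11 lower and none higher, where 0.423% of genes passed downward, and the fit without the 2 libraries apart called 5 lower (0.928%). For 15 of the 55 all MDA5 double knockouts lay below all RIG-I double knockouts, beside 4.53% of all genes.

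Phf11d was read at 653, 578, 555 and 632 in the MDA5 double knockout and at 971, 1041, 873 and 1031 in the RIG-I double knockout. The groups were far apart. The log2 fold change was -0.69 ± 0.08 SE in the fit of the 8 libraries (limma adjusted p = 0.00428) and ± 0.17 SE in that of all 25 (adjusted p = 0.122). Slfn5, a Schlafen family member, had 4679, 4042, 4261 and 4041 against 6190, 6465, 5881 and 7227. Its log2 fold change was -0.60 ± 0.08 SE with 8 libraries (limma adjusted p = 0.00986) and ± 0.16 SE with 25 (adjusted p = 0.204). Parp14, an ADP-ribosyltransferase, had 3205, 3990, 3740 and 2793 against 5581, 4465, 5117 and 5850 (adjusted p = 0.0434 with 8 libraries, 0.156 with 25). Eif2ak2, the kinase PKR that stops translation on double-stranded RNA, had 1172, 1118, 1236 and 1200 against 1690, 1563, 1508 and 1822 (adjusted p = 0.0175 with 8 libraries, 0.231 with 25). Apart from the sensors, these 4 genes had the smallest p of the list in the fit of 25 libraries and were named for it. None of the 4 overlapped between the genotypes, which that choice favours.

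The other 7 that passed with 8 libraries were chosen after their values were seen. The dynamin-like antiviral GTPase Mx1 had 158, 152, 140 and 248 against 346, 376, 429 and 390. Its log2 fold change was -1.17 ± 0.16 SE in the fit of 8 libraries (limma adjusted p = 0.011), and the adjusted p was 0.381 with 25. The related Mx2 was lower by 1.06 on the log2 scale in the fit of 8. The oligoadenylate synthetase Oas2, which activates RNase L, had 931, 1091, 988 and 1833 against 2401, 2324, 2936 and 2738. All its values in the MDA5 double knockout were all below those of the RIG-I double knockout, with library 4 the highest. Oas1g, one of several similar Oas1 copies among which reads can be split, had 1004, 834, 700 and 808 against 1347, 1211, 1078 and 1317 (-0.57 ± 0.11 SE, adjusted p = 0.0415 with 8 libraries). Samd9l, Mndal and Ifi27l2a completed the group, with Ifi27l2a at 5120, 5502, 3991 and 6333 against 10650, 9529, 7568 and 9214.

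Among the genes that did not pass in any of these fits was Irf7, the interferon regulatory factor that amplifies interferon production, at 3183, 1877, 1966 and 2052 against 3815, 3218, 3390 and 3650 (limma adjusted p = 0.331 with 25 libraries, 0.0918 with 8). Rsad2, or viperin, had 331, 177, 159 and 203 against 418, 340, 326 and 367, and Ifit3 280, 120, 111 and 96.1 against 240, 203, 219 and 293. For these, library 1 of the MDA5 double knockout stood near or within the RIG-I range and the other 3 below it. Irf9, Daxx, Tor3a and Ifitm3 had a positive value, none above 0.13.

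**Figure D4:**
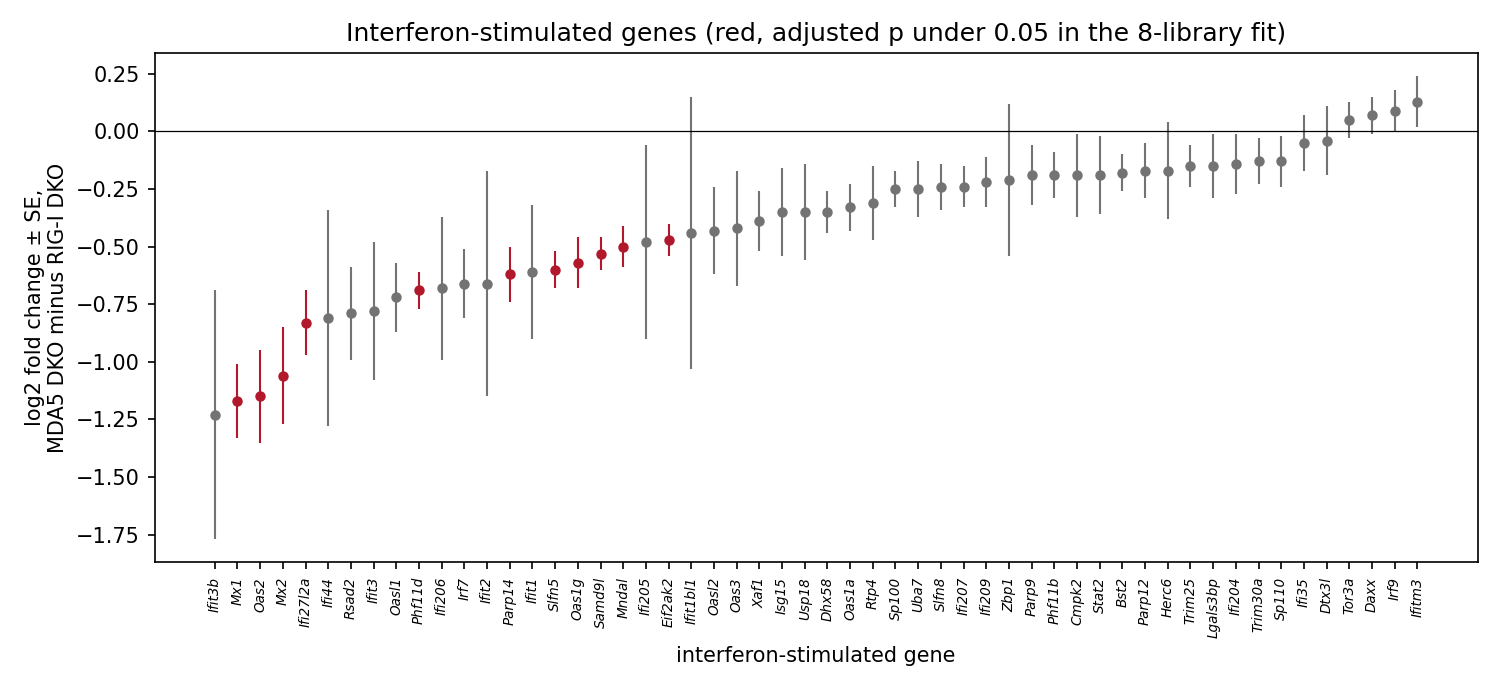
Log2 fold change ± SE of 54 interferon-stimulated genes in the fit of the 8 double-knockout libraries, ordered by size, negative where SAMHD1 MDA5 DKO is lower; red genes have an adjusted p under 0.05 in that fit. Of the 54, 50 lie below 0, with the 11 red ones among them.

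Without library 1 of the MDA5 double knockout the median of the 55 genes was -0.483, with 52 negative, and without library 3 it was -0.234, with 48 negative. The mean log2 value of the list was 10.34, 9.83, 9.70 and 9.74 in the MDA5 double knockout and 10.34, 10.26, 10.20 and 10.41 in the RIG-I double knockout. It lay between 10.10 and 10.61 in SAMHD1 KO, its library 2 with high Samhd1 included, and between 9.23 and 9.96 in WT. The RIG-I double knockouts were thus within the range of SAMHD1 KO, and 3 of the 4 MDA5 double knockouts were within that of WT. The single sensor knockouts lay lower, between 9.01 and 9.54 in MDA5 KO and between 9.37 and 9.74 in RIG-I KO. Every library of each double knockout was above the range of the matching single knockout.

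Promoters of members that moved together are shown to let the interferon-stimulated response element be read in place. The motif searched was GAAA, any 2 bases and GAAA, on both strands, in the window from 250 bases before to 50 after the start of each gene. RefSeq (GRCm38.p6) holds such a window for 42 of the 55 genes, and 21 of these contain the motif (50%), against 3.44% of all 32851 promoter windows. The 3 shown are those of the members with the smallest p in the full fit that hold it, and they lie at chr11:82951852-82952151 (Slfn5, plus strand), chr17:78882523-78882822 (Eif2ak2, minus strand) and chr5:120887564-120887863 (Oas1g, minus strand). Each reads 5′ to 3′ along its gene, with motif matches in capitals. A match is a description of the letters and not a measured site.
Slfn5: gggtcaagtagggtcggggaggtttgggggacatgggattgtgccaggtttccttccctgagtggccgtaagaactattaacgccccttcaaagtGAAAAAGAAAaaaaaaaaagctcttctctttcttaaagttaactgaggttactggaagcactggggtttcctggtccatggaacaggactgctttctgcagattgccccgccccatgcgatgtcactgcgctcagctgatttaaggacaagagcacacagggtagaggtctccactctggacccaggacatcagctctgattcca
Eif2ak2: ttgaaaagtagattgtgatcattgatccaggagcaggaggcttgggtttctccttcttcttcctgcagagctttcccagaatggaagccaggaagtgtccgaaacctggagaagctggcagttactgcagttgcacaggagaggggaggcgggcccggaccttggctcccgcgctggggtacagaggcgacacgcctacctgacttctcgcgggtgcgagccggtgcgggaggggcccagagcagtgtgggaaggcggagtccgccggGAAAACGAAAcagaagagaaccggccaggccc
Oas1g: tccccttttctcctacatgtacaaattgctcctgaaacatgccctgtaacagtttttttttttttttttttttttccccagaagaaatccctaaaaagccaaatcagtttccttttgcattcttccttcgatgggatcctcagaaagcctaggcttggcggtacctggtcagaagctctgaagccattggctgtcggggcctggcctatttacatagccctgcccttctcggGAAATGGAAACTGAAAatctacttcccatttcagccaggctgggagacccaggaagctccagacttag

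In Slfn5 the single match begins 155 bases before the start site, in Eif2ak2 it begins 18 bases after it, and in Oas1g 2 overlapping matches begin 18 and 12 bases before it. Phf11d and Samd9l, which were also lower in the fit of 8 libraries, have a window without the motif.

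Genes of antigen presentation and the interferon-inducible GTPases did not pass as the interferon-stimulated genes did with 8 libraries, and library 1 of the MDA5 double knockout set much of their spread. Of 16 GTPases tested, 10 had a positive value and 6 a negative one, with none passing in the fits of 25, 8 or 23 libraries (limma). Their median was 0.042 and fell to -0.394 without library 1. Igtp, an immunity-related GTPase, had 2769, 1019, 983 and 834 against 1012, 1079, 935 and 979, so that library 1 lay far above the RIG-I double knockouts and library 4 below them. Among 16 genes of MHC class I presentation (median 0.095, and -0.0847 without library 1), 1 was lower without overlap, beside 4.53% of all genes. It was the nonclassical class I gene H2-T24, with 1666, 1121, 1096 and 1017 against 2170, 1793, 1697 and 2172 (-0.70 ± 0.20 SE, limma adjusted p = 0.235).

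All 10 measured genes of MHC class II presentation had a positive value, with a median of 0.684, and none passed in the fits of 25 or 8 libraries. H2-DMb2, a chain of the peptide-loading molecule H2-DM, had 96.7, 101, 69.1 and 70.6 against 51.3, 39.8, 49.3 and 28.2 (limma adjusted p = 0.296) and passed without the 2 libraries apart (adjusted p = 0.0495). The class II chain H2-Aa, chosen after its values were seen, had 29377, 2949, 6383 and 3450 against 4992, 3248, 3903 and 3482, and the median of the list without library 1 was 0.15. B cells, whose markers were higher in the same group, also express class II genes. Their part in this difference was not tested.

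The rest of the RNA-sensing pathway showed no gene that passed in the fits of 25, 8 or 23 libraries. All 28 listed genes of nucleic acid sensing were tested, 15 positive and 13 negative (median 0.000563). Irf5, an interferon regulatory factor downstream of Toll-like receptors, came nearest with 5101, 5451, 5215 and 4983 against 4198, 4538, 4716 and 3857 (0.26 ± 0.08 SE, limma adjusted p = 0.237). Cgas, the DNA sensor, had a mean of 268 ± 29.1 (SD, n = 4) against 337 ± 32 (limma adjusted p = 0.533). Of interferons and their receptors 10 of 14 were tested, with a median of 0.00312, and Ifnb1, Ifna4 and Ifng were not analysed here. The receptor chain Ifnar1 averaged 2500 ± 244 against 2700 ± 167 (limma adjusted p = 0.72), and the kinase Jak1 8450 ± 177 against 7470 ± 214 (limma adjusted p = 0.525).

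No chemokine or inflammatory gene passed in these 3 fits, and 1 complement gene passed in 1 of them. Of 11 tested chemokines 10 had a positive value, with a median of 0.111 that ran from -0.0344 (without library 4 of the MDA5 double knockout) to 0.269 (without library 3). Cxcl13, the ligand of Cxcr5, had 53221, 35904, 22238 and 37167 against 19597, 25727, 50282 and 27912, so the groups overlapped while its receptor differed (limma adjusted p = 0.822). The 23 inflammatory genes had a median of 0.0384, and -0.072 without library 1 of the MDA5 double knockout, and Il1a averaged 111 ± 29.2 against 155 ± 17.9 (limma adjusted p = 0.676). Of 14 complement genes 11 were positive (median 0.213), and 5 were higher without overlap, beside 5.25% of all genes. C1qc, a chain of the first component, had 125099, 118687, 110041 and 112351 against 98727, 101612, 94691 and 94558 without overlap (limma adjusted p = 0.644 with 25 libraries). It passed without the 2 libraries apart (limma adjusted p = 0.0442).

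Deoxynucleotide metabolism, which SAMHD1 takes part in, had 22 tested genes other than Samhd1, 15 of them negative (median -0.088), with none passing. Rrm2b, the p53-regulated subunit of ribonucleotide reductase, averaged 510 ± 44.7 against 588 ± 34.9 (limma adjusted p = 0.537). Of 25 proliferation genes 22 were negative, with a median of -0.189 that ran from -0.313 (without library 3 of the MDA5 double knockout) to -0.0542 (without library 4), and Mki67, the marker of cycling cells, averaged 378 ± 175 against 652 ± 213 (limma adjusted p = 0.759). Cdkn1a, which encodes the cell cycle inhibitor p21, had 1870, 1733, 2161 and 1918 against 1432, 1847, 1251 and 968 and led the p53 targets (median 0.0242, limma adjusted p = 0.498). Sterol and lipid genes had a median of 0.0595, and their leading member Srebf1, a transcription factor of fatty acid synthesis, averaged 2090 ± 211 against 1760 ± 151 (limma adjusted p = 0.32). None of these 4 lists held a gene that passed in the fits of 25, 8 or 23 libraries.

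Among macrophage markers the median was -0.0177 for 27 large peritoneal macrophage genes and -0.0983 for 19 of small peritoneal macrophages and monocytes, and none of them passed in these 3 fits. Padi4, a peptidylarginine deiminase abundant in these cells, averaged 45400 ± 4140 against 39700 ± 2730 (limma adjusted p = 0.561). Without library 3 of the MDA5 double knockout the median of the second list was -0.402, and Mrc1, the mannose receptor, averaged 2850 ± 926 against 1770 ± 301 (limma adjusted p = 0.618). Markers of neutrophils and eosinophils (8 of 20 measured, median -0.134), erythroid cells (3 of 9, median 1.27, from 0.465 to 2.39 with 1 library left out) and mesothelial and stromal cells (1 of 15, Pecam1) likewise held no gene that passed. Of 5 sex-linked genes only Xist was measured, with 1455, 2088, 2214 and 4217 against 3691, 3502, 6010 and 4454. The groups overlapped (-0.90 ± 0.45 SE, limma adjusted p = 0.577). Ddx3y, Eif2s3y, Kdm5d and Uty were not among the listed genes.

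The same sensor contrast without SAMHD1 loss, MDA5 KO against RIG-I KO, uses 8 other libraries. It called 64 genes (0.483%), 55 higher (0.415%) and 9 lower (0.0679%) in MDA5 KO, and 16 of the 21 genes were among them. All 21 had the same sign. Rnd3 differed by 2.81 there and by 2.61 between the double knockouts, Cxcr5 by 4.86 and 5.14, and Kif5c by -3.53 and -4.10. Jund, Sh3bgrl3, Snapc2, Efs and Gm49519 were the 5 that did not pass between the single knockouts. The median of the B cell markers was 3.78 there, with 10 of 16 passing, and that of the 55 interferon-stimulated genes was -0.243, with 46 negative.

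**Figure D5:**
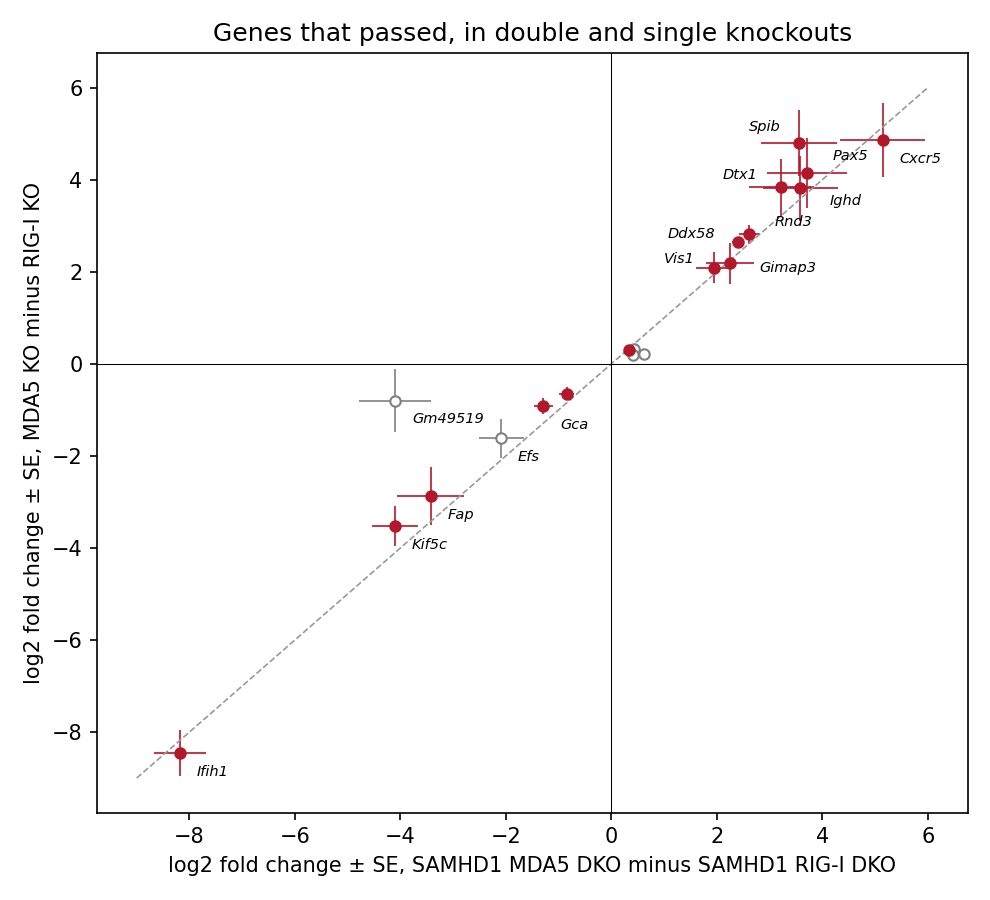
Log2 fold change ± SE of 20 of the 21 genes between the double knockouts (horizontal) and between the single knockouts MDA5 KO and RIG-I KO (vertical); filled red points also passed between the single knockouts, open points did not, and the dashed line marks equal values. All 20 lie on the same side of 0 on both axes, and Gm49519 lies farthest from the line, at -4.10 and -0.80.

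Whether the 2 contrasts differed was tested directly. The interaction of the sensor contrast with SAMHD1 loss called 0 genes (limma), and the lowest adjusted p was 0.837. Before adjustment 137 genes (1.03%) had a p under 0.05. For Gm49519 the interaction was -3.31 ± 0.96 SE and for Jund 0.40 ± 0.15 SE, and neither passed. Without library 1 of the MDA5 double knockout 1 gene passed, Sorl1, a sorting receptor of endosomes, chosen after its values were seen (-1.57, limma adjusted p = 0.0443). An interaction that missed the threshold does not show that the contrasts are alike.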

How the data were processed

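RNA-seq of untreated peritoneal macrophages was analysed from a table of variance-stabilized log2 values that the authors deposited for 25 libraries. STAR, Salmon, R and DESeq2 are named in the submitters' processing notes without their roles, and the labels' protocols name other tools. Which of these made the values is not stated there. The deposited log2 values have a floor of 5.81, which is a count of 0. The stabilizing transform was inverted, and the group means so recovered differed from the mean signal per genotype (reads divided by size factors) that the authors deposited by at most 8.65e-14 in relative terms. Divided by a step found in each library's own values, 100% of values were whole reads within a tolerance of 0.01. The step was chosen to make the lowest values of the library whole, so for those the result was built in. The authors' fold changes and p-values were not used.

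Genes with at least 10 normalized counts in at least 4 libraries were kept, 13252 of 13266. limma 3.58.1 (trend and robust, with statmod 1.5.0 in R 4.3.3) was fitted to log2(normalized count + 1) of all 25 libraries with genotype as the only term. Tests were two-sided, with Benjamini-Hochberg adjustment over the 13252 genes and a threshold of 0.05. Alternatives were other pseudocounts, filters and scalings, limma voom on the recovered reads, other sets of libraries and each library left out. On simulated data at these depths the fit recovered 53.7%, 71.6% and 90.9% of genes changed by 1.5, 2 and 4 times in 13166 genes.

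Libraries of each double knockout differed by far more than sampling noise, with a chi-square between 15.7 and 91.9 per degree of freedom. All genes that passed and carry a symbol were named, completed to 10 in a direction by those of smallest p that did not pass, with up to 4 members of each list. Vis1, 5031425F14Rik and Gm49519 have only an ID in the deposited table and took their names from a reference table after their values were seen. Some genes are not reported here. Members and lists were chosen with earlier results of these data known. Positions and overlaps come from GENCODE M21 (GRCm38), and promoter windows from RefSeq (GRCm38.p6).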

Additional observations from a re-analysis of the deposited data

Results flagged for a closer look

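In groups of 4, a library was singled out where its gap to the nearest other exceeded Dixon's 95% critical value as a share of the range. This held for 22 of 204 gene and group pairs and 5 of 48 list and group pairs, where chance gives about 1 in 20. Of these 27, 11 were in library 1 of the MDA5 double knockout.

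Library 1 of the MDA5 double knockout was high for interferon-inducible GTPases and antigen presentation. Its normalized count was 2769 for Igtp (others 834 to 1019), 2734 for Irgm1 (1269 to 1366), 4965 for Irgm2 (1797 to 2113) and 3172 for Gbp7 (1611 to 1694). The peptide transporter gene Tap1 stood at 5718 there (2331 to 2614), H2-T24 at 1666 (1017 to 1121) and H2-DMb1 at 2873 (1244 to 1381). The mean log2 value of the list was 11.19 for the GTPases (others 9.28 to 9.38), 13.21 for MHC class I presentation, 9.66 for inflammatory genes and 15.27 for complement.

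Library 3 of the MDA5 double knockout had the high Samhd1 count of 4952 and low B cell genes, with 22.1 for Cxcr5, 6.45 for Pax5 and a mean log2 value of 4.44 for B cell markers. It also held 4.61 for Gm49519, which was at 0 in the other libraries of the group, and 67.2 for Il1a. Library 2 of that group had 205 for the p53 target Pmaip1 and 2.3 for the eosinophil receptor Siglecf.

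Among the RIG-I double knockouts, library 1 had 284 for Zfp760 and library 2 had 9.31 for Vis1. Library 3 had 1.7 for Ighd, 3.4 for Tpsb2 and 43747 for Padi4. Library 4 had 970 for Mki67 (others 524 to 561), 956 for Top2a (613 to 653), which unwinds DNA in dividing cells, and 0 for the globin gene Hbb-bt. The cause of these values was not tested.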

How the results depend on the processing

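The count of genes that passed between the double knockouts, 21, became 11 on the deposited stabilized values, 11 with a pseudocount of 5, 9 with a minimum of 50 normalized counts, 11 with voom, 94 with only the 8 libraries and 234 without the 2 libraries apart, and ran from 10 to 18 with 1 library left out. Between MDA5 KO and RIG-I KO, 64 became 27 on the stabilized values, 18 with voom, 452 with only those libraries and 696 without those apart, and ran from 23 to 171 with 1 left out. The interaction gave 0 or 1. Of the 21 genes, leaving out a library ended no call of Cxcr5 and 1 of Vis1 (library 4 of the RIG-I double knockout). Spib lost its call with any of the 8 left out, and Fap, Ubald1, Dtx1, Gimap3, Ighd, Sh3bgrl3, Pax5, Efs and Snapc2 with 5 to 7 of them.

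List medians moved most for markers with few reads. On the stabilized values they were 0.596 for B cells, 0.288 for T and NK cells, 0.402 for mast cells and 0.0823 for dendritic cells. A pseudocount of 5 gave 1.79, 0.881, 1.15 and 0.169 in that order, and the stricter minimum 0.201 for T and NK cells, 3.02 for mast cells and -0.0523 for dendritic cells. Mast cells had 2.78 with a pseudocount of 0.5 and 2.73 with voom. Scaling to total counts moved the median of all genes to -0.0553 and gave -0.0578 for nucleic acid sensing, -0.146 for deoxynucleotide metabolism and -0.0341 for p53 targets. Quantile normalization gave 0.0709 for complement and -0.241 for neutrophils and eosinophils. Without library 3 of the MDA5 double knockout, which has intermediate Samhd1, the medians were 3.35 for B cells and -0.402 for small peritoneal macrophages and monocytes. That fit is also part of the ranges that follow. With 1 library left out the ranges were 2.47 to 3.35 for B cells, -0.402 to 0.0318 for small peritoneal macrophages and monocytes, 0.12 to 0.683 for dendritic cells and -0.152 to -0.0404 for deoxynucleotide metabolism. The causes were not tested, and no direction of a gene that passed was reversed. No paired analysis was possible because the columns carry codes in place of the replicate numbers of the labels.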
